A study of Homo sapiens with 12 samples.

Results

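TMD8 is a human diffuse large B cell lymphoma line of the activated B cell-like class, labelled ABC. The TMD8 cells studied here held a guide RNA to PRMT5 under control of doxycycline, and were cultured with 20 ng/ml doxycycline for 6 days or for 0 days, with 2 libraries per day. These 4 libraries, of 12 in the study, were taken by their labelled line and day. The 2 TMD8 libraries of day 3, from cells given the same agent at the same dose, entered the fit for the estimate of the spread and are quoted as values. OCI-Ly7, a line of the germinal centre B cell-like class (GCB) with the same guide, days and dose, was used to ask where the day 6 response of TMD8 differed. All of these groups carried the guide, day 0 included. Cells with doxycycline but without the guide were not analysed here, so that doxycycline, time in culture and cutting of the PRMT5 gene cannot be told apart. The labels do not say whether the cells were a clone or a pool, or whether libraries of a day came from separate cultures, so p-values measure the spread between libraries, which may be technical. The protocol label names other days of doxycycline than the titles, characteristics and design text, which were followed.

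PRMT5 is the main enzyme that places symmetric dimethyl marks on arginine, on histone tails and on the Sm proteins of the spliceosome among others, and it works in a complex with WDR77. Lymphomas of the ABC class typically rest on chronic B cell receptor signalling, NF-kB and the transcription factor IRF4, and secrete cytokines such as IL-6. Growing B cells also make their own sterols: the factor SREBP-2, the product of SREBF2, is escorted by SCAP from the endoplasmic reticulum when sterols are scarce, is held back by INSIG1 when they are plentiful, and switches on the mevalonate pathway.

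The PRMT5 transcript was at 49.6 and 54.7 FPKM at day 6, against 64.8 and 60.5 FPKM at day 0. FPKM is the fragments of a gene scaled by transcript length and by the mapped fragments of its library. Both day 6 libraries lay below both day 0 libraries. At day 3 PRMT5 stood at 41.3 and 42.0 FPKM, below both day 6 libraries, so its level did not follow the order of the days. On the values as deposited PRMT5 differed by -0.26 (SE 0.074) on the log2(FPKM + 1) scale, with an adjusted p = 0.0262. After median-ratio scaling, which sets libraries to a common level by the middle of their gene-wise ratios, the difference was 0.10 (SE 0.0506, adjusted p = 0.201), so that the call and the sign depended on the scaling. The call as deposited was also lost without the first or without the second day 0 library (-0.21, adjusted p = 0.144, and -0.31, adjusted p = 0.0516) and without the first day 6 library (-0.19, adjusted p = 0.104). The partner WDR77 stood at 29.3 and 36.4 FPKM at day 6 and at 36.4 and 33.3 FPKM at day 0, and the groups overlapped. None of the 5 tested genes of the PRMT5 complex rose or fell in both scalings, beside 3.81% and 13.5% of all tested genes. The difference of effects between the lines, day 6 change in TMD8 minus day 6 change in OCI-Ly7, was positive past the threshold after median-ratio scaling for all 5, where 19.0% of 9688 genes were higher in TMD8 and 14.1% lower. As deposited, PRMT5 (0.77, adjusted p = 0.01) and WDR77 (0.58, adjusted p = 0.0244) passed among these 5. After median-ratio scaling the OCI-Ly7 change of PRMT5 was -0.89. Protein levels were not measured. Among the other arginine methyltransferases CARM1, which places asymmetric marks, fell by 0.70 as deposited (SE 0.116, adjusted p = 0.00528) and by 0.34 after scaling (adjusted p = 0.0382). Of the 6 fits that left out 1 TMD8 library, CARM1 passed in both scalings only in that without the second day 6 library (log2 change as deposited from -0.86 to -0.54 over the 6).

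The libraries carried the markers of the labelled line. The B cell genes CD79A, CD79B and MS4A1, which encodes CD20, stood at 82.5 to 223 FPKM in the day 6 libraries and at 124 to 289 FPKM in those of day 0. IRF4, a defining gene of the ABC class, was at 244 and 301 FPKM at day 6 and at 461 and 423 FPKM at day 0. The germinal centre marker MME was listed at 0 or at 0.0226 FPKM in the 4 libraries, whereas SERPINA9 of the same class was present. The T and NK cell markers CD3D, CD3E, CD3G, CD2, NCAM1, KLRD1 and GNLY were listed at 0 in the 6 TMD8 libraries. Of the 16 members of that list 11 were listed at 0 throughout, and their summed level was 3.76 and 3.91 FPKM at day 6 and 3.21 and 3.13 FPKM at day 0. Of the 12 myeloid markers 7 were listed at 0 throughout, and their sum was 42.4 and 47.9 FPKM at day 6 and 67.0 and 61.4 FPKM at day 0. Of the 14 stromal and epithelial markers 5, EPCAM and KRT19 among them, were listed at 0 throughout, and their sum was 247.8 and 244 FPKM at day 6 and 225 and 216 FPKM at day 0. Most of that sum was VIM, which encodes vimentin and is also expressed by lymphoid cells, at 233 and 231 FPKM at day 6 and at 205 and 196 FPKM at day 0. VIM rose by 0.21 as deposited (adjusted p = 0.0199) and by 0.57 after scaling (adjusted p = 0.00618), and missed the test without any 1 library of day 6 or day 0 (as deposited from 0.18 to 0.24). The part of these markers in other results was not tested.

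Far more transcripts went down than up on the values as deposited. A gene was tested with limma where its mean FPKM reached 1 over the 6 TMD8 libraries, which held for 10456 of 25369 rows, and passed at an adjusted p under 0.05. As deposited, 407 genes were higher at day 6 (3.89%) and 5409 lower (51.7%), with a median log2 change of -0.31. After median-ratio scaling 1611 were higher (15.4%) and 1409 lower (13.5%), with a median close to 0 by construction. The words rose and fell are used below for genes that passed in the same direction in both scalings. These were 398 higher (3.81%) and 1409 lower (13.5%), of which 185 and 33 changed at least 2-fold after scaling. The rule was stricter for rises than for falls. All 1409 genes lower after scaling were also lower as deposited, whereas of the 1611 higher after scaling 398 were also higher as deposited. List counts below carry this imbalance, and are to be read beside the shares of all tested genes. Among the 398 were 102 rows of small RNAs and 57 histone rows. In bulk libraries, fewer cells with a transcript and less transcript per cell cannot be told apart.

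The 45S pre-ribosomal RNA row took an estimated 27.1% and 23.5% of fragments at day 6, against 6.97% and 10.6% at day 0. The estimate is its FPKM times a RefSeq length of 13357 nt, assumed to hold for the deposited row. The part of that row in the common shift was not tested. The median change was -0.07 when set per fragment outside that row. The depth of the day 6 libraries, read from the steps between low values, was 0.61 and 0.57 of the first day 0 library, and that of the second day 0 library 1.17. Both day 0 libraries weighed on the counts: without the first, 167 rose and 142 fell, and without the second 196 rose and 160 fell. Leaving out day 6 libraries gave, for the first and for the second, 327 and 343 higher and 1057 and 1209 lower. Of 112 named genes that rose or fell, 52 did so in each of the 6 fits without 1 TMD8 library, in which the lone library of a day was assumed to vary like the others.

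**Figure D1:**
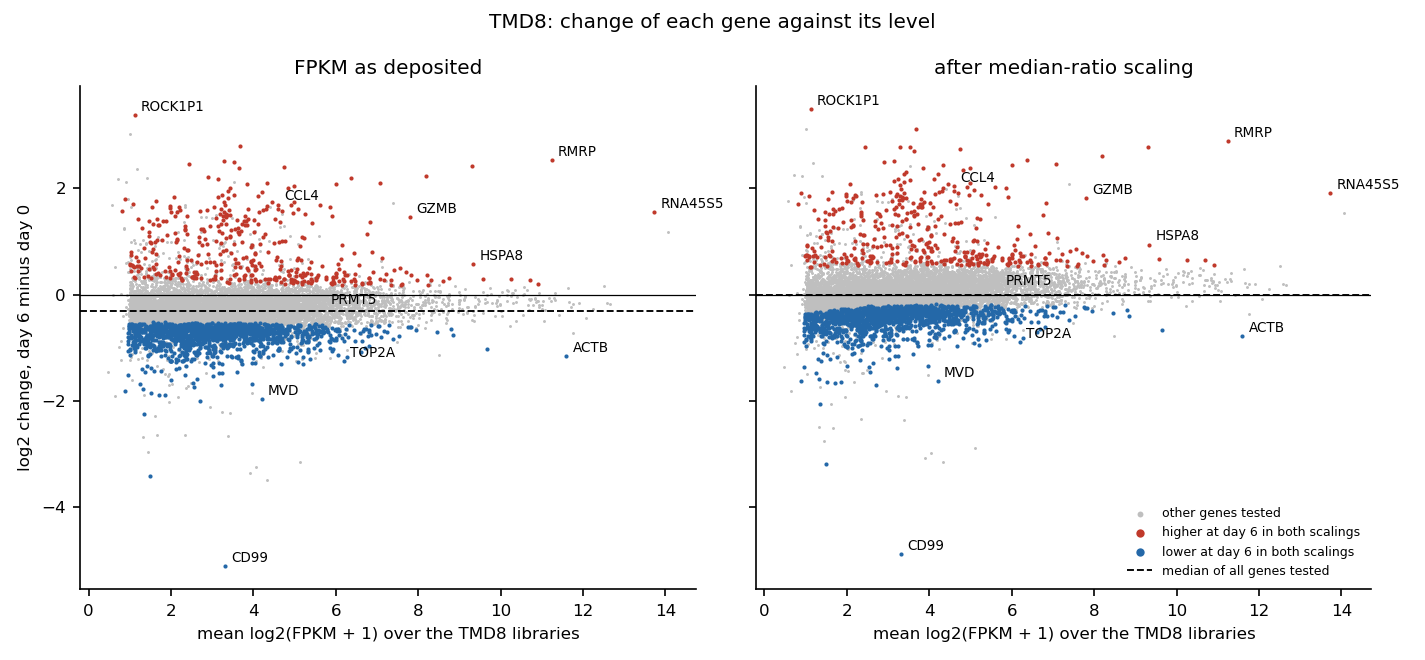
Change of each tested gene in TMD8, day 6 minus day 0 on the log2(FPKM + 1) scale (vertical axis), against its mean level over the 6 TMD8 libraries (horizontal axis), as deposited (left) and after median-ratio scaling (right). Red and blue points rose and fell in both scalings (398 and 1409 genes), grey points did not, and the dashed line is the median, at -0.31 on the left and close to 0 on the right; CD99 and ROCK1P1 are rows listed at 0 in both libraries of a day.

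Sterol synthesis was lowered at most of its steps. Of its 20 genes, all of them tested, 15 fell and 0 rose, against 13.5% and 3.81% of all tested genes. Their median log2 change was -0.47 after scaling and -0.81 as deposited, against a median close to 0 and one of -0.31 over all genes. The summed level of the 20 genes was 618 and 633 FPKM at day 6, against 1126 and 1094 FPKM at day 0. At day 3 the sum was 847 and 847 FPKM, between the other days. Without the first and without the second day 0 library 5 and 7 of the 20 genes fell, and without 1 of the other libraries 10 to 12.

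The promoters of MVD and DHCR7, the synthesis genes with the largest falls, and of SREBF2, which encodes the regulator of the pathway, are shown from 250 bases before to 50 after the start (RefSeq, GRCh38.p14; the deposited values were made on hg19 and are joined by symbol). Capitals mark matches to the CCAAT box (CCAAT, either strand) and to the sterol response element (TCACNCCAC, either strand), which did not overlap.
MVD, chr16:88663042-88663341, minus strand: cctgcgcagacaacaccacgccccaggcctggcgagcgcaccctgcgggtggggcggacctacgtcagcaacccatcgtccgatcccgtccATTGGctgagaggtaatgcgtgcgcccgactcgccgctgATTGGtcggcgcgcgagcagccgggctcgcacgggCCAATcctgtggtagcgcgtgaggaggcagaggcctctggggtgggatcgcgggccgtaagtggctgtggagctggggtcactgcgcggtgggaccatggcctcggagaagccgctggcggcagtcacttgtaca
DHCR7, chr11:71448344-71448643, minus strand: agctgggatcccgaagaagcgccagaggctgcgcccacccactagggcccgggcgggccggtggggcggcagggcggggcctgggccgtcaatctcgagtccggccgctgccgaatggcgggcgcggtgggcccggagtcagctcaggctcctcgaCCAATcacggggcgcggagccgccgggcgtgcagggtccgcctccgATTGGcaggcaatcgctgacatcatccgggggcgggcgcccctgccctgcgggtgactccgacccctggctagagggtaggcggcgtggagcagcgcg
SREBF2, chr22:41832855-41833154, plus strand: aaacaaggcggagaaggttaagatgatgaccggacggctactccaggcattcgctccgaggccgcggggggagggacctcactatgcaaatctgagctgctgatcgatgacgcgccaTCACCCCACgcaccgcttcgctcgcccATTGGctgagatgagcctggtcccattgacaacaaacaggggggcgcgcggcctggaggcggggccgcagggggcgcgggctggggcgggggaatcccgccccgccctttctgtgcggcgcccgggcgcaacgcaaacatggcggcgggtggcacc
MVD held 3 CCAAT boxes and DHCR7 held 2, while SREBF2 held a CCAAT box and a match to the sterol element at -133 to -125 from its start. A CCAAT box was found in 12 of the 15 sterol synthesis promoters with a sequence (80.0%), against 35.7% of 27305 promoters in the table. The sterol element letters were in 0 of these 15 and in 1.15% of all promoters. A match is a description of the letters in this window.

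Among the early, mevalonate steps 6 of 8 genes fell, against 13.5% of all tested genes. MVD, the decarboxylase that yields isopentenyl diphosphate, was at 8.45 and 6.86 FPKM at day 6, against 33.0 and 32.4 FPKM at day 0. Its change was -1.97 (SE 0.103, adjusted p = 0.001) as deposited and -1.62 (SE 0.128, adjusted p = 0.00342) after scaling. The day 3 libraries, at 19.7 and 21.2 FPKM, stood between the days. FDPS, which makes farnesyl diphosphate, was at 110 and 103 FPKM at day 6 and at 182 and 188 FPKM at day 0 (-0.43 after scaling, adjusted p = 0.0226), and missed the test without the second day 6 library or either day 0 library (log2 change as deposited from -0.83 to -0.74). HMGCS1, named here after its values were seen, varied within days, at 12.2 and 29.5 FPKM at day 6 and at 65.2 and 33.8 FPKM at day 0, and did not pass (adjusted p = 0.0699 as deposited).

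From squalene to lanosterol all 3 genes fell, against 13.5% of all tested genes. SQLE, the squalene epoxidase, was at 38.8 and 42.0 FPKM at day 6, against 77.3 and 73.6 FPKM at day 0 (-0.53 after scaling, SE 0.0466, adjusted p = 0.00444). FDFT1, the squalene synthase, was at 63.4 and 65.6 FPKM at day 6 and at 118 and 119 FPKM at day 0. LSS, which closes the ring to lanosterol, was at 15.8 and 17.0 FPKM at day 6 and at 34.9 and 33.1 FPKM at day 0, and missed the test without the first day 0 library (log2 change as deposited over the fits from -1.06 to -0.96). The day 6 and day 0 libraries did not overlap for any of these 3 genes, and the 3 fell by similar amounts, from -0.66 to -0.51 after scaling.

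On the way from lanosterol to cholesterol 6 of 9 genes fell, against 13.5% of all tested genes. DHCR7, the last reductase of the pathway, was at 25.2 and 24.9 FPKM at day 6, against 60.6 and 58.1 FPKM at day 0 (-1.21 as deposited, SE 0.0614, adjusted p = 0.001; -0.86 after scaling, adjusted p = 0.00342). CYP51A1, the lanosterol demethylase, was at 28.8 and 28.5 FPKM at day 6 and at 50.9 and 49.6 FPKM at day 0. DHCR7 passed in each fit without 1 library, whereas CYP51A1 missed the test without either day 0 library (as deposited from -0.81 to -0.77).

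Genes that control the pathway fell in part. Of 11 tested genes of sterol uptake and control 6 fell and 0 rose, beside 13.5% and 3.81% of all tested genes. The level filter was not reached by 5 of the 16 members. SREBF2 was at 23.2 and 27.1 FPKM at day 6, against 48.7 and 43.8 FPKM at day 0 (-0.50 after scaling, SE 0.0751, adjusted p = 0.0111). INSIG1, whose product holds the SREBP-2 complex back, was at 35.4 and 27.6 FPKM at day 6 and at 59.9 and 61.8 FPKM at day 0 (-0.58, adjusted p = 0.0382). STARD4, a cholesterol transport protein, was at 10.1 and 8.90 FPKM at day 6 and at 17.6 and 17.6 FPKM at day 0 (-0.49, adjusted p = 0.0251). SCAP fell by 0.55 as deposited (adjusted p = 0.00308) and by 0.22 after scaling (adjusted p = 0.0402), and was at 8.67 and 9.24 FPKM at day 6, against 13.6 and 13.6 FPKM at day 0. These calls rested on few libraries: without either day 0 library 0 of the list fell, without either day 3 library 2 and without either day 6 library 3. SREBF2 and STARD4 missed the test without either day 0 library (as deposited from -0.96 to -0.75 and from -0.91 to -0.75). INSIG1 missed it without either day 0 or either day 3 library (from -1.11 to -0.77), and SCAP without any 1 library (from -0.59 to -0.51).

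Fatty acid synthesis, the other arm under SREBP control, followed with 8 of 16 tested genes lower and 0 higher, of 19 in the list. Among all tested genes 13.5% fell and 3.81% rose. ACSS2, which makes acetyl-CoA from acetate, was at 2.48 and 1.78 FPKM at day 6, against 6.66 and 7.03 FPKM at day 0 (-1.04 after scaling, adjusted p = 0.00954). FADS1, the delta-5 desaturase, was at 3.98 and 3.74 FPKM at day 6 and at 10.3 and 9.47 FPKM at day 0 (-0.85, adjusted p = 0.00655). FASN, the fatty acid synthase, was at 25.02 and 26.37 FPKM at day 6 and at 57.9 and 53.3 FPKM at day 0 (-0.73, adjusted p = 0.00378). SCD, the stearoyl-CoA desaturase, was also lower without overlap, at 64.0 and 64.8 FPKM at day 6 and at 141 and 132 FPKM at day 0 (-0.71, adjusted p = 0.00378). FADS1, FASN and SCD passed in each fit without 1 library; without either day 0 library 3 of the list fell, and ACSS2 did not pass (as deposited from -1.49 to -1.17).

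The sterol response of TMD8, with a median change of -0.47 after scaling over the 20 synthesis genes, stood beside one of -0.59 in OCI-Ly7. The difference of effects passed for 2 genes higher in TMD8 (ACAT2 and IDI1, the thiolase and isomerase) and for 2 lower (MVD and TM7SF2, a sterol reductase), named after their values were seen, against 19.0% and 14.1% of all genes. As deposited it passed for MVD and TM7SF2. The change of MVD was -1.62 in TMD8 and 0.29 in OCI-Ly7 (adjusted p = 0.422 within OCI-Ly7), and the difference was -1.92 after scaling (adjusted p = 0.0029). For DHCR7, FDPS, SQLE and CYP51A1, also named after their values were seen, the differences of -0.08, -0.08, -0.03 and -0.09 did not pass (adjusted p from 0.414 for CYP51A1 to 0.849 for SQLE), which does not show equal effects.

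**Figure D2:**
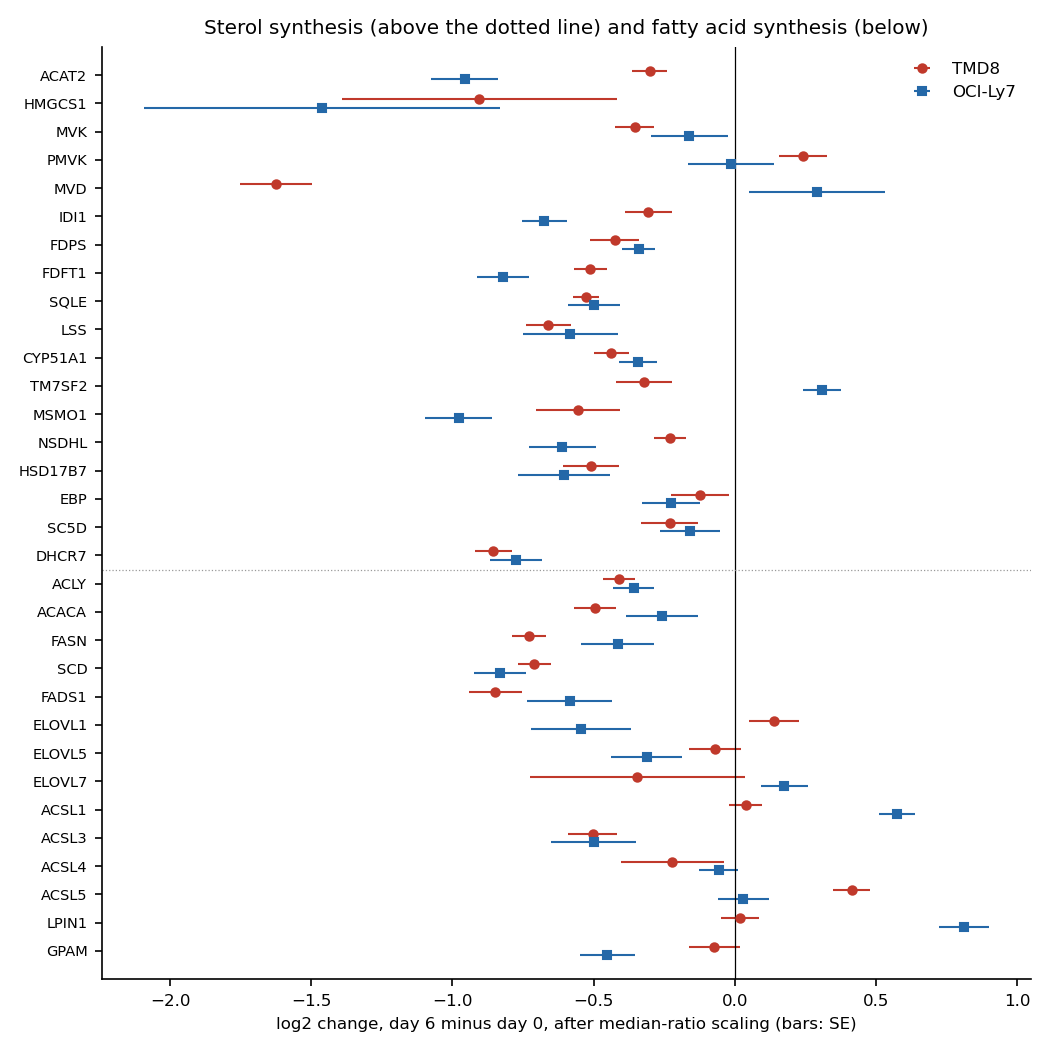
Log2 change, day 6 minus day 0 after median-ratio scaling (horizontal axis), of tested genes of sterol synthesis (above the dotted line) and of fatty acid synthesis (below it) in TMD8 (red circles) and OCI-Ly7 (blue squares); bars are standard errors with 2 libraries a day. Most genes lie left of 0 in both lines, while MVD lies at -1.62 in TMD8 and at 0.29 in OCI-Ly7.

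Some chemokine and cytokine genes were among the larger rises of protein-coding transcripts. Of 41 genes in the list 17 were tested, and 5 rose and 1 fell, beside 3.81% and 13.5% of all tested genes. The filter kept members partly through the day on which they were high, and 12 rows were listed at 0 in all TMD8 libraries. CCL4, a chemokine that draws T cells and myeloid cells, was at 51.1 and 56.8 FPKM at day 6, against 16.9 and 15.1 FPKM at day 0. Its change was 1.69 (SE 0.0865, adjusted p = 0.001) as deposited and 2.04 (SE 0.0566, adjusted p = 0.000308) after scaling. At day 3 CCL4 was still at 14.5 and 14.6 FPKM. Its near-identical copies share reads, and the summed level of the CCL4, CCL4L1 and CCL4L2 rows was 81.4 and 90.4 FPKM at day 6, against 28.0 and 23.5 FPKM at day 0 (log2 difference 1.70).

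The other 4 rises of the list were CCL3, CCL22, IL6 and LTA. CCL3, a related chemokine, was at 13.9 and 16.8 FPKM at day 6, against 5.46 and 5.77 FPKM at day 0 (1.62 after scaling, adjusted p = 0.00332). CCL22, which attracts CCR4-bearing T cells, was at 6.06 and 8.70 FPKM at day 6 and at 2.07 and 1.89 FPKM at day 0 (1.74, adjusted p = 0.00342). IL6 was at 10.1 and 11.5 FPKM at day 6 and at 5.27 and 3.92 FPKM at day 0 (1.39, adjusted p = 0.00444). These 3 genes and CCL4 stood clear of the day 0 libraries and passed in each fit without 1 library. LTA, which encodes lymphotoxin alpha, was at 6.02 and 4.63 FPKM at day 6 and at 2.01 and 1.12 FPKM at day 0 (1.56, adjusted p = 0.0221), and missed the test without the first day 6 library or either day 0 library (as deposited from 1.06 to 1.57). In the other direction IL23A, the p19 subunit of interleukin 23, was at 1.01 and 1.01 FPKM at day 6 and at 2.65 and 2.99 FPKM at day 0 (-0.69, adjusted p = 0.02), and missed it without any 1 library of day 6 or day 0 (from -0.99 to -0.86). CCL4, CCL3, IL6 and LTA did not reach the level filter in both lines, and for CCL22 the difference between the lines was 0.98 (adjusted p = 0.00428).

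The promoter of IL6 is shown as the member that rose and held a match to an NF-kB site (GGNNTTTCC, either strand), in capitals at -72 to -64 from the start (RefSeq, GRCh38.p14).
IL6, chr7:22726950-22727249, plus strand: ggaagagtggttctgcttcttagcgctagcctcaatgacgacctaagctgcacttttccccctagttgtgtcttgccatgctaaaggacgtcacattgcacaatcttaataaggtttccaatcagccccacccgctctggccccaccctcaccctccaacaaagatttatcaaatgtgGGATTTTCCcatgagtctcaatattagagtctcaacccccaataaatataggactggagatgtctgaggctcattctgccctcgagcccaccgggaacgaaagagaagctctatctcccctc
Such a match was in 8 of 30 promoters of the list with a sequence (26.7%) and in 6.26% of 27305 promoters. Of the 4 promoters of members that rose, 1 held it.

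GZMB, which encodes granzyme B, a serine protease best known from killer lymphocytes, was the protein-coding gene outside the histones with the highest level among those that rose past 2-fold. It was at 351 and 434 FPKM at day 6, against 141 and 143 FPKM at day 0, with 194 and 201 FPKM at day 3. The change was 1.46 (SE 0.102, adjusted p = 0.00143) as deposited and 1.82 (SE 0.0864, adjusted p = 0.00198) after scaling, and passed in each fit without 1 library. Perforin, PRF1, the pore that carries granzyme into target cells, stayed between 0.0502 and 0.209 FPKM over the 6 libraries, and 6 of the 11 cytotoxic granule genes were listed at 0 throughout. SRGN, the proteoglycan that packs granules, was at 206 and 171 FPKM at day 6 and at 142 and 144 FPKM at day 0 (0.76 after scaling, adjusted p = 0.0163). SERPINB9, the intracellular inhibitor of granzyme B, was at 23.2 and 27.3 FPKM at day 6 and at 38.9 and 39.8 FPKM at day 0 (-0.27, adjusted p = 0.0397). The last 2 calls rested on few libraries: SRGN missed the test without the first day 6 library or either day 0 library (as deposited from 0.26 to 0.53), and SERPINB9 passed only without the second day 6 library (from -0.74 to -0.51).

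Of 5 tested receptors for immunoglobulin and their relatives, of 12 in the list, 3 rose and 0 fell in both scalings, and the other 2 were lower as deposited. Among all tested genes 3.81% rose and 13.5% fell in both scalings, and 51.7% were lower as deposited. FCGR2B, the inhibitory Fc gamma receptor of B cells, was at 5.51 and 5.42 FPKM at day 6, against 3.19 and 2.63 FPKM at day 0 (1.01 after scaling, adjusted p = 0.0099). FCRL2 was at 17.0 and 18.5 FPKM at day 6 and at 12.9 and 12.2 FPKM at day 0 (0.81, adjusted p = 0.00332). FCRLA, an Fc receptor-like protein kept inside the cell, was at 30.6 and 36.3 FPKM at day 6 and at 24.4 and 23.8 FPKM at day 0 (0.80, adjusted p = 0.00478). FCRL3 went the other way as deposited, at 25.1 and 29.3 FPKM at day 6 and at 41.9 and 38.2 FPKM at day 0, and did not pass after scaling (-0.19, adjusted p = 0.0734). FCGR2B missed the test without either day 0 library (as deposited from 0.63 to 0.83) and FCRLA without the first (from 0.33 to 0.57). CD5, a surface receptor of T cells and some B cells, was at 2.53 and 2.88 FPKM at day 6 and at 1.86 and 1.81 FPKM at day 0 (0.63 after scaling, adjusted p = 0.0173), and missed the test without any 1 library of day 6 or day 0 (as deposited from 0.32 to 0.45).

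**Figure D3:**
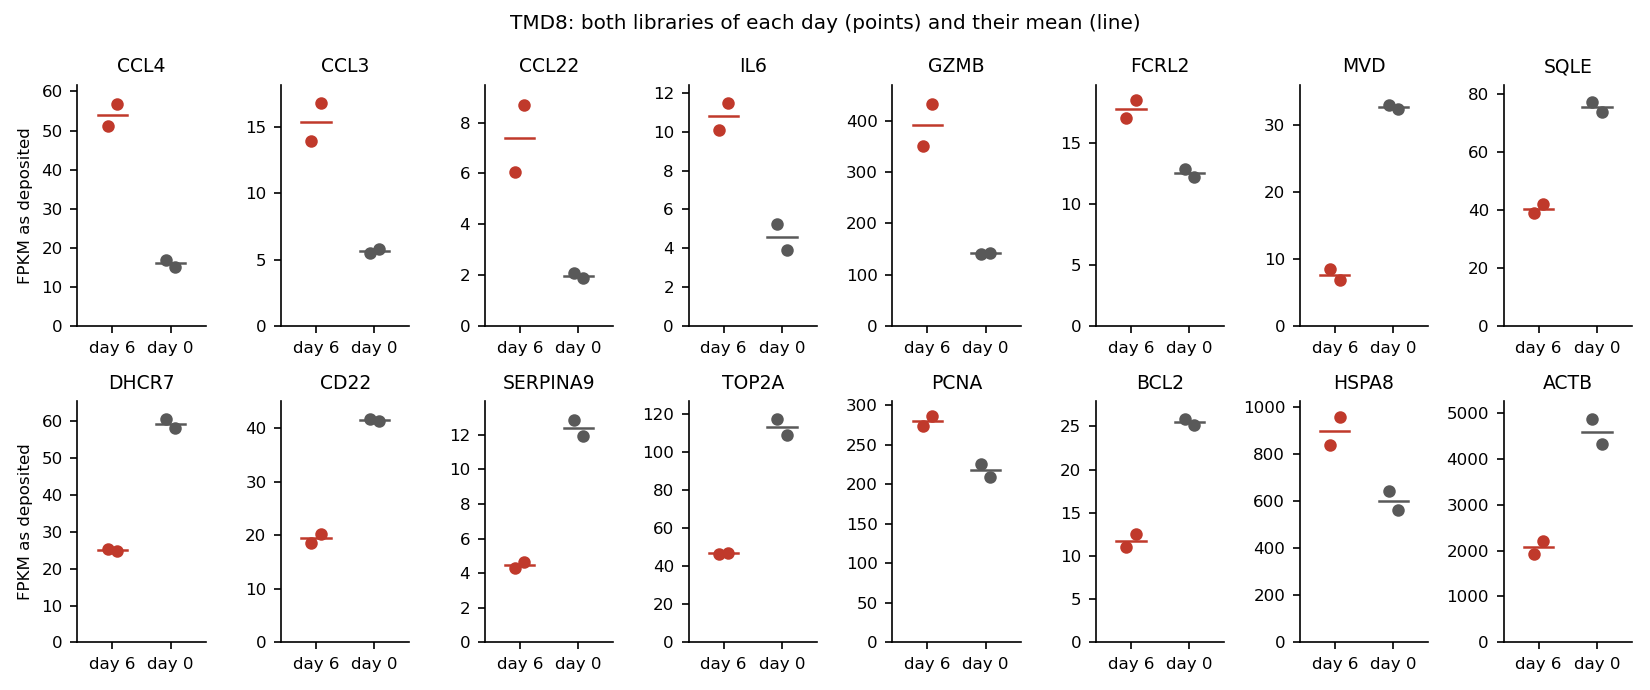
FPKM as deposited (vertical axes, each starting at 0) of 16 genes in the 2 TMD8 libraries of day 6 (red) and of day 0 (grey), with the mean as a line. The libraries of a day do not overlap those of the other day for any of these genes; CCL4, CCL3, CCL22, IL6, GZMB, FCRL2, PCNA and HSPA8 are higher at day 6 and the other 8 are lower.

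Some genes of B cell identity fell. Of 15 tested members 4 fell and 0 rose, against 13.5% and 3.81% of all genes, and as deposited 9 were lower. CD22, a sialic acid-binding receptor that dampens B cell receptor signals, was at 18.7 and 20.3 FPKM at day 6, against 41.8 and 41.3 FPKM at day 0 (-0.70 after scaling, SE 0.0532, adjusted p = 0.00342). PAX5, the master regulator of the B lineage, was at 4.45 and 5.35 FPKM at day 6 and at 10.7 and 10.1 FPKM at day 0 (-0.64, adjusted p = 0.00913). IKZF1, which encodes Ikaros, was at 39.8 and 46.3 FPKM at day 6 and at 76.5 and 70.9 FPKM at day 0 (-0.41, adjusted p = 0.00987). POU2AF1, a B cell coactivator, was low, at 1.0455 and 1.0501 FPKM at day 6 and at 2.00 and 1.86 FPKM at day 0 (-0.30, adjusted p = 0.0452). For CD79A, CD79B and MS4A1 the changes after scaling were -0.01, 0.07 and -0.14 and did not pass, which does not show that they were unchanged. As deposited their day 6 libraries lay below both day 0 libraries, and CD79B passed (-0.29, adjusted p = 0.00769). CD22 passed in each fit without 1 library, PAX5 and IKZF1 missed it without either day 0 library (as deposited from -1.07 to -0.84 and from -0.87 to -0.66), and POU2AF1 missed it without any 1 library (from -0.55 to -0.48). Lacking either day 0 library, 1 of the list fell. In OCI-Ly7 the change after scaling was 0.29 for CD22 and 0.66 for PAX5, and the difference of effects passed for both (-0.996, adjusted p = 0.00103, and -1.29, adjusted p = 0.000568).

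Of the germinal centre genes 4 of 12 tested fell and 0 rose, against 13.5% and 3.81% of all genes, although TMD8 is of the other class. SERPINA9, a serpin of germinal centre B cells, was at 4.31 and 4.66 FPKM at day 6, against 12.9 and 11.9 FPKM at day 0 (-0.97 after scaling, SE 0.0746, adjusted p = 0.00342). S1PR2, which confines B cells to the germinal centre, was at 2.09 and 1.99 FPKM at day 6 and at 3.64 and 3.56 FPKM at day 0 (-0.33, adjusted p = 0.0393). SERPINA9 passed in each fit without 1 library. S1PR2 passed without the first day 6 library alone (as deposited from -0.62 to -0.57). Lacking either day 0 library, 1 of the list fell. BCL6, the repressor that defines the class, was at 7.56 and 9.36 FPKM at day 6 and at 12.9 and 12.6 FPKM at day 0, and did not pass after scaling (-0.21, adjusted p = 0.0953).

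Among 13 tested genes of the ABC class 4 fell and 1 rose, where 13.5% of all tested genes fell and 3.81% rose. IRF4, given above, fell by 0.70 as deposited (SE 0.107, adjusted p = 0.00426) and by 0.34 after scaling (adjusted p = 0.0315), a call that was lost without the first day 6 library, either day 3 library or either day 0 library (as deposited from -0.85 to -0.55). Of 12 tested plasma cell genes, a list that also holds IRF4, 4 fell and 1 rose. MZB1 of that list, a chaperone of antibody secretion, was at 15.4 and 15.6 FPKM at day 6, against 33.5 and 32.8 FPKM at day 0 (-0.70, SE 0.0576, adjusted p = 0.00378), and passed in each such fit. Without either day 0 library 0 members of the ABC list rose and 1 fell, and without the second day 6 or either day 3 library 2 fell. Of the plasma cell list 1 fell without either day 0 library, and 0 rose without any 1 library.

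Of 30 tested genes of B cell receptor signalling 4 fell and 2 rose, a share of falls close to that of all genes (13.5%). PLCG2, the phospholipase below the receptor, was at 19.8 and 22.2 FPKM at day 6, against 43.9 and 41.0 FPKM at day 0 (-0.63 after scaling, SE 0.0502, adjusted p = 0.00342). SYK, the kinase above it, was at 33.5 and 41.4 FPKM at day 6 and at 66.5 and 62.7 FPKM at day 0 (-0.42, adjusted p = 0.0173). PLCG2 passed in each fit without 1 library and SYK missed it without either day 0 library (as deposited from -0.93 to -0.63). The falls also hold the inhibitory receptor CD22, and the rises the inhibitory receptor FCGR2B. In the fits without either day 0 library 2 of the list fell and 0 rose.

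Of 32 tested NF-kB pathway genes 6 fell and 1 rose, close to the shares of all genes (13.5% and 3.81%). REL, the c-Rel subunit, was at 6.20 and 8.90 FPKM at day 6, against 16.8 and 15.4 FPKM at day 0 (-0.69 after scaling, adjusted p = 0.0196). NFKBIZ, a nuclear cofactor active in ABC lymphoma, was at 40.5 and 49.1 FPKM at day 6 and at 81.5 and 76.2 FPKM at day 0 (-0.45, adjusted p = 0.0126). TRAF3, which restrains the alternative pathway, was at 13.51 and 14.95 FPKM at day 6 and at 24.1 and 23.4 FPKM at day 0 (-0.36, adjusted p = 0.0102). The inhibitor gene NFKBIE rose slightly, at 31.7 and 31.2 FPKM at day 6 and at 27.4 and 26.9 FPKM at day 0 (0.20 as deposited, adjusted p = 0.0299; 0.56 after scaling, adjusted p = 0.00701). NFKBIA, the inhibitor induced by NF-kB itself, was at 62.4 and 74.1 FPKM at day 6 and at 66.3 and 56.8 FPKM at day 0, and passed after scaling alone (0.50, adjusted p = 0.0141). Without the first and without the second day 0 library 0 and 1 of the list fell. REL, NFKBIZ and TRAF3 missed the test without either (as deposited from -1.25 to -0.79, from -0.94 to -0.67 and from -0.77 to -0.63), and NFKBIE without any 1 library (from 0.19 to 0.22).

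Receptors of cytokines and their JAK-STAT relays showed 7 falls and 2 rises among 33 tested genes, beside 13.5% and 3.81% of all genes. IL2RB, the beta chain of the interleukin 2 and 15 receptors, was at 2.28 and 2.25 FPKM at day 6, against 6.54 and 5.88 FPKM at day 0 (-0.85 after scaling, SE 0.0763, adjusted p = 0.00455). STAT3, a hallmark factor of the ABC class, was at 54.3 and 55.2 FPKM at day 6 and at 91.8 and 84.9 FPKM at day 0 (-0.32, adjusted p = 0.0145). STAT5A was at 5.12 and 5.07 FPKM at day 6 and at 4.06 and 4.08 FPKM at day 0 (0.56, adjusted p = 0.00956). IL2RB passed in each fit without 1 library, STAT3 missed it without either day 0 library (as deposited from -0.73 to -0.62), and STAT5A without any 1 library (from 0.26 to 0.27). Without either day 0 library 1 of the list fell and 0 rose, without either day 6 library 0 rose, and without either day 3 library 3 fell and 1 rose.

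Interferon response genes showed 8 falls and 1 rise among 29 tested, beside 13.5% and 3.81% of all genes. IFITM1, a membrane protein that blocks virus entry, was at 4.90 and 5.50 FPKM at day 6, against 10.7 and 10.8 FPKM at day 0, and at 10.8 and 10.7 FPKM at day 3 (-0.60 after scaling for day 6, adjusted p = 0.00573). IRF7, the regulator of type I interferon, was at 0.70 and 1.12 FPKM at day 6 and at 2.47 and 2.39 FPKM at day 0 (-0.63, adjusted p = 0.0205). TRIM22, a restriction factor that p53 also induces, was at 30.03 and 34.51 FPKM at day 6 and at 25.4 and 24.0 FPKM at day 0 (0.72, adjusted p = 0.00342). IFITM1 passed in each fit without 1 library, and IRF7 and TRIM22 missed it without either day 0 library (as deposited from -1.01 to -0.70 and from 0.27 to 0.47). In the fits lacking 1 day 0 library 1 of the list fell and 0 rose.

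Of 23 tested genes of the TNF family and costimulation 2 rose and 2 fell, with the falls below the share of all genes (13.5%). TNFRSF13C, the receptor of the survival factor BAFF, was at 1.199 and 1.575 FPKM at day 6, against 4.79 and 4.45 FPKM at day 0 (-0.98 after scaling, SE 0.0884, adjusted p = 0.00459), and passed in each fit without 1 library. CD40 was at 42.8 and 49.0 FPKM at day 6 and at 38.7 and 37.6 FPKM at day 0 (0.61, adjusted p = 0.00491). CD274, which encodes the checkpoint ligand PD-L1, was at 10.6 and 8.74 FPKM at day 6 and at 7.47 and 7.25 FPKM at day 0 (0.67, adjusted p = 0.017). Both rises were lost in 5 of the 6 fits without 1 library; CD40 passed without the first day 6 library (as deposited over the 6 fits from 0.16 to 0.35) and CD274 without the second (from 0.22 to 0.47). Homing and adhesion genes showed 1 rise and 6 falls among 32 tested, beside 3.81% and 13.5% of all genes. Among homing genes CCR7, a receptor of lymph node entry, was at 20.5 and 15.3 FPKM at day 6 and at 10.1 and 12.1 FPKM at day 0 (0.96 after scaling, adjusted p = 0.0196). CCR7 missed the test without either day 0 library (as deposited from 0.42 to 0.83), where 0 of 32 tested homing and adhesion genes rose or fell, against 1 and 6 with all libraries, and 3 fell without the second day 6 library.

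Of 65 tested mitotic genes 21 fell and 0 rose, against 13.5% and 3.81% of all genes, with a median change of -0.20 after scaling. As deposited 58 of the 65 were lower. TOP2A, the topoisomerase that untangles sister chromatids, was at 46.6 and 47.0 FPKM at day 6, against 117 and 109 FPKM at day 0 (-1.25 as deposited, SE 0.0669, adjusted p = 0.001; -0.89 after scaling, adjusted p = 0.00332). KIF14, a kinesin of cytokinesis, was at 4.31 and 4.43 FPKM at day 6 and at 9.34 and 7.93 FPKM at day 0 (-0.53, adjusted p = 0.01). CENPE, the kinesin of the centromere, was at 6.75 and 6.97 FPKM at day 6 and at 13.9 and 13.9 FPKM at day 0 (-0.59, adjusted p = 0.00897). BUB1B, of the spindle checkpoint, ASPM, of the spindle pole, KIF4A, a chromosome-bound kinesin, and CDC25C, the phosphatase that opens mitosis, fell as well, with changes of -0.33, -0.39, -0.40 and -0.62 after scaling. MKI67, the proliferation marker, was at 18.6 and 22.8 FPKM at day 6 and at 38.0 and 26.4 FPKM at day 0, with the spread of day 0 wide, and did not pass after scaling (-0.25, adjusted p = 0.264). TOP2A passed in each fit without 1 library. Without the first and without the second day 0 library 2 and 4 of the list fell. KIF14 missed the test without the first (as deposited from -0.95 to -0.73). CENPE, BUB1B, ASPM and KIF4A missed it without either (from -0.94 to -0.90, from -0.73 to -0.63, from -0.79 to -0.65 and from -0.80 to -0.68). CDC25C missed it without either day 0 or either day 3 library (from -1.06 to -0.77).

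The promoters of TOP2A and KIF4A are shown as fallen members that held the CHR element (TTTGAA, either strand), a site known from cell cycle genes, beside CCAAT boxes (RefSeq, GRCh38.p14; capitals mark both, without overlap).
TOP2A, chr17:40417847-40418146, minus strand: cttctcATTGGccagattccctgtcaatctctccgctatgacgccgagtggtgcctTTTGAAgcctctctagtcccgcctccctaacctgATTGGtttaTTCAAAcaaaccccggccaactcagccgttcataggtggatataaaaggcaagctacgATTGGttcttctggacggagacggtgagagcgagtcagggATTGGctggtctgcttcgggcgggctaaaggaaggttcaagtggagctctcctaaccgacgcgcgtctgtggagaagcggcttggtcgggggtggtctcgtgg
KIF4A, chrX:70289854-70290153, plus strand: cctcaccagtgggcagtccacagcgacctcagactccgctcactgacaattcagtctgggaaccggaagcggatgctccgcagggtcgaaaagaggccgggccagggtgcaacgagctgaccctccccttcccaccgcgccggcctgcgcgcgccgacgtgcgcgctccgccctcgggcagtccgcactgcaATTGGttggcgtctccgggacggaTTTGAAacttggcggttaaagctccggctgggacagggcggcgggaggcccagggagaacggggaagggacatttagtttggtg
TOP2A held 4 CCAAT boxes and 2 matches to the CHR letters, and KIF4A held 1 of each. The CHR letters were in 40 of 56 mitosis promoters with a sequence (71.4%), against 15.4% of 27305 promoters and 9.82% of the 8250 promoters of tested genes. CCAAT was in 41 of the 56 (73.2%). Among the 19 of these genes that fell, 12 held the CHR letters (63.2%).

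Of 47 tested DNA replication genes 3 rose and 3 fell, and 1 to 4 rose and 1 to 3 fell without 1 library. Over all tested genes 3.81% rose and 13.5% fell. After scaling alone 17 of the 47 were higher and 3 lower. PCNA, the sliding clamp, was at 274 and 287 FPKM at day 6, against 226 and 209 FPKM at day 0 (0.37 as deposited, adjusted p = 0.00653, and 0.73 after scaling, adjusted p = 0.00342). GMNN, which encodes the licensing inhibitor geminin, was at 41.1 and 41.9 FPKM at day 6 and at 36.0 and 36.2 FPKM at day 0 (0.55 after scaling, adjusted p = 0.00845). POLD1, the catalytic subunit of polymerase delta, was at 23.1 and 21.1 FPKM at day 6 and at 52.9 and 49.8 FPKM at day 0 (-0.83, adjusted p = 0.00561). Clamp and polymerase, which work together at the fork, thus stood on opposite sides, and both passed in each fit without 1 library. CCNE2, a cyclin of the G1 to S transition, was at 3.95 and 4.25 FPKM at day 6 and at 3.17 and 2.68 FPKM at day 0 (0.66, adjusted p = 0.00726). GMNN missed the test without any 1 library (as deposited from 0.18 to 0.21), and CCNE2 without the second day 6 library or either day 0 library (from 0.29 to 0.47). After scaling the difference of effects was positive for 24 of 47 replication genes and negative for 3, against 19.0% and 14.1% of all genes. As deposited it was positive for 12 and negative for 4. MYC, a driver of growth and of the cell cycle, was at 41.3 and 53.8 FPKM at day 6 and at 88.8 and 82.8 FPKM at day 0 (-0.49 after scaling, adjusted p = 0.0194), and missed the test without either day 0 library (as deposited from -1.03 to -0.66).

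Of 34 tested p53 target genes 6 rose and 0 fell, against 3.81% and 13.5% of all genes. After scaling alone 16 were higher and 0 lower. Their median change was 0.33 after scaling and -0.01 as deposited. GADD45A, a stress sensor of the cell cycle, was at 9.29 and 8.85 FPKM at day 6, against 5.58 and 5.49 FPKM at day 0 (0.94 after scaling, SE 0.0795, adjusted p = 0.00395). PHLDA3, an inhibitor of AKT, was at 11.3 and 11.9 FPKM at day 6 and at 6.52 and 5.75 FPKM at day 0 (1.14, SE 0.0608, adjusted p = 0.00252). SESN1, a sestrin that restrains mTORC1, was at 3.43 and 3.52 FPKM at day 6 and at 2.10 and 2.18 FPKM at day 0 (0.77, adjusted p = 0.00771). At day 3, in a comparison that shares the day 0 libraries, PHLDA3 was at 8.78 and 8.69 FPKM, between the other days. RPS27L was at 83.6 and 82.8 FPKM at day 6 and at 64.1 and 63.9 FPKM at day 0 (0.73, adjusted p = 0.00444), and TRIAP1, an inhibitor of apoptosis, changed by 0.77 (adjusted p = 0.00342). CDKN1A, which encodes p21 and is the best known p53 target, was at 58.6 and 56.9 FPKM at day 6 and at 65.1 and 67.6 FPKM at day 0, and differed by -0.20 as deposited (adjusted p = 0.0402) and by 0.16 after scaling (adjusted p = 0.196). Without either day 0 library 4 of the list rose; SESN1 missed the test without the first (as deposited over all fits from 0.49 to 0.53) and TRIAP1 without the second (from 0.32 to 0.50).

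BCL2, the survival gene often raised in ABC lymphoma, was at 11.1 and 12.5 FPKM at day 6, against 25.9 and 25.2 FPKM at day 0. Its change was -1.06 (SE 0.0856, adjusted p = 0.00158) as deposited and -0.71 (SE 0.0592, adjusted p = 0.00378) after scaling, and passed in each fit without 1 library. The day 3 values of 19.0 and 17.5 FPKM lay between the other days. In OCI-Ly7 the change of BCL2 after scaling was 0.30 (adjusted p = 0.038), and the effects differed by -1.01 (adjusted p = 0.000354). Falls made up 13.5% of all tested genes, a share to set beside the family count that follows. Of the 15 tested genes of the BCL2 family 3 fell, BCL2 as 1 of 5 pro-survival members, and without the second day 0 library 1 did.

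Part of the heat shock chaperones rose in TMD8, with 8 of 28 tested genes higher and 0 lower, against 3.81% and 13.5% of all genes. After scaling alone 22 were higher and 0 lower. HSPA8, the constitutive HSP70, was at 838 and 956 FPKM at day 6, against 640 and 561 FPKM at day 0 (0.58 as deposited, adjusted p = 0.00479; 0.94 after scaling, adjusted p = 0.00342). HSPH1, its exchange factor, was at 81.1 and 90.5 FPKM at day 6 and at 62.0 and 52.3 FPKM at day 0 (0.94, adjusted p = 0.00342). HSPE1, the mitochondrial HSP10, was at 258 and 241 FPKM at day 6 and at 183 and 169 FPKM at day 0 (0.86, adjusted p = 0.00461). These 3 passed in each fit without 1 library, and DNAJB1, a co-chaperone (0.71, adjusted p = 0.00342), missed the test without the second day 0 library (as deposited from 0.29 to 0.44), where 3 of the list rose. Without the second day 6 library or either day 3 library 5 of the list rose. The list had a median of 0.40 after scaling in TMD8 and -0.42 in OCI-Ly7. After scaling the difference of effects was positive for 22 of 28 genes and negative for 0, against 19.0% and 14.1% of all genes. As deposited it was positive for 18 and negative for 0. HSPA8 changed by -1.31 in OCI-Ly7 after scaling (adjusted p = 0.0235), a difference of 2.25 (adjusted p = 0.000325).

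Genes of the amino acid response fell in part. Of 28 tested targets of ATF4, the factor of the integrated stress response, 9 fell and 0 rose. Among 19 cytosolic tRNA synthetases 5 fell and 0 rose, where 13.5% of all tested genes fell and 3.81% rose. AARS, the alanyl-tRNA synthetase, was at 41.7 and 40.9 FPKM at day 6, against 88.7 and 86.7 FPKM at day 0 (-0.71 after scaling, SE 0.0668, adjusted p = 0.00478). PHGDH, the entry to serine synthesis, was at 35.8 and 28.7 FPKM at day 6 and at 65.1 and 64.6 FPKM at day 0 (-0.64, adjusted p = 0.0251). PYCR1, of proline synthesis, was at 12.03 and 12.01 FPKM at day 6 and at 23.4 and 25.2 FPKM at day 0 (-0.61, adjusted p = 0.00954). TRIB3, a pseudokinase that ATF4 induces, fell as well, by 0.51 after scaling (adjusted p = 0.0114). AARS passed in each fit without 1 library, PYCR1 missed it without the second day 0 library (as deposited from -1.01 to -0.91), and PHGDH and TRIB3 without either (from -1.15 to -0.84 and from -0.89 to -0.80). Without the first and without the second day 0 library 1 and 0 ATF4 targets fell, and 1 synthetase in either case.

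Glycolysis and hypoxia genes showed 7 falls and 1 rise among 31 tested, beside 13.5% and 3.81% of all genes. PFKL, a subunit of phosphofructokinase, was at 10.7 and 10.5 FPKM at day 6, against 25.1 and 24.7 FPKM at day 0 (-0.81 after scaling, SE 0.0637, adjusted p = 0.00342), and passed in each fit without 1 library, while 1 of the list fell without either day 0 library and 2 without the second day 6 library. The actin genes were among the most abundant transcripts that fell. ACTB, which encodes beta-actin, was at 1925 and 2213 FPKM at day 6, against 4859 and 4324 FPKM at day 0 (-1.15 as deposited, SE 0.108, adjusted p = 0.00183; -0.79 after scaling, adjusted p = 0.0103). ACTG1, the gamma isoform, was at 525 and 608 FPKM at day 6 and at 1209.9 and 1099.99 FPKM at day 0 (-0.66, adjusted p = 0.00726). The monomer-binding thymosin TMSB4X stood the other way, at 2110 and 1962 FPKM at day 6 and at 1671 and 1676 FPKM at day 0 (0.65, adjusted p = 0.0114). ACTB missed the test without either day 0 library (as deposited from -1.25 to -1.0499), ACTG1 without the first (from -1.14 to -0.92), and TMSB4X without the first day 6 library or either day 0 library (from 0.23 to 0.33).

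**Figure D4:**
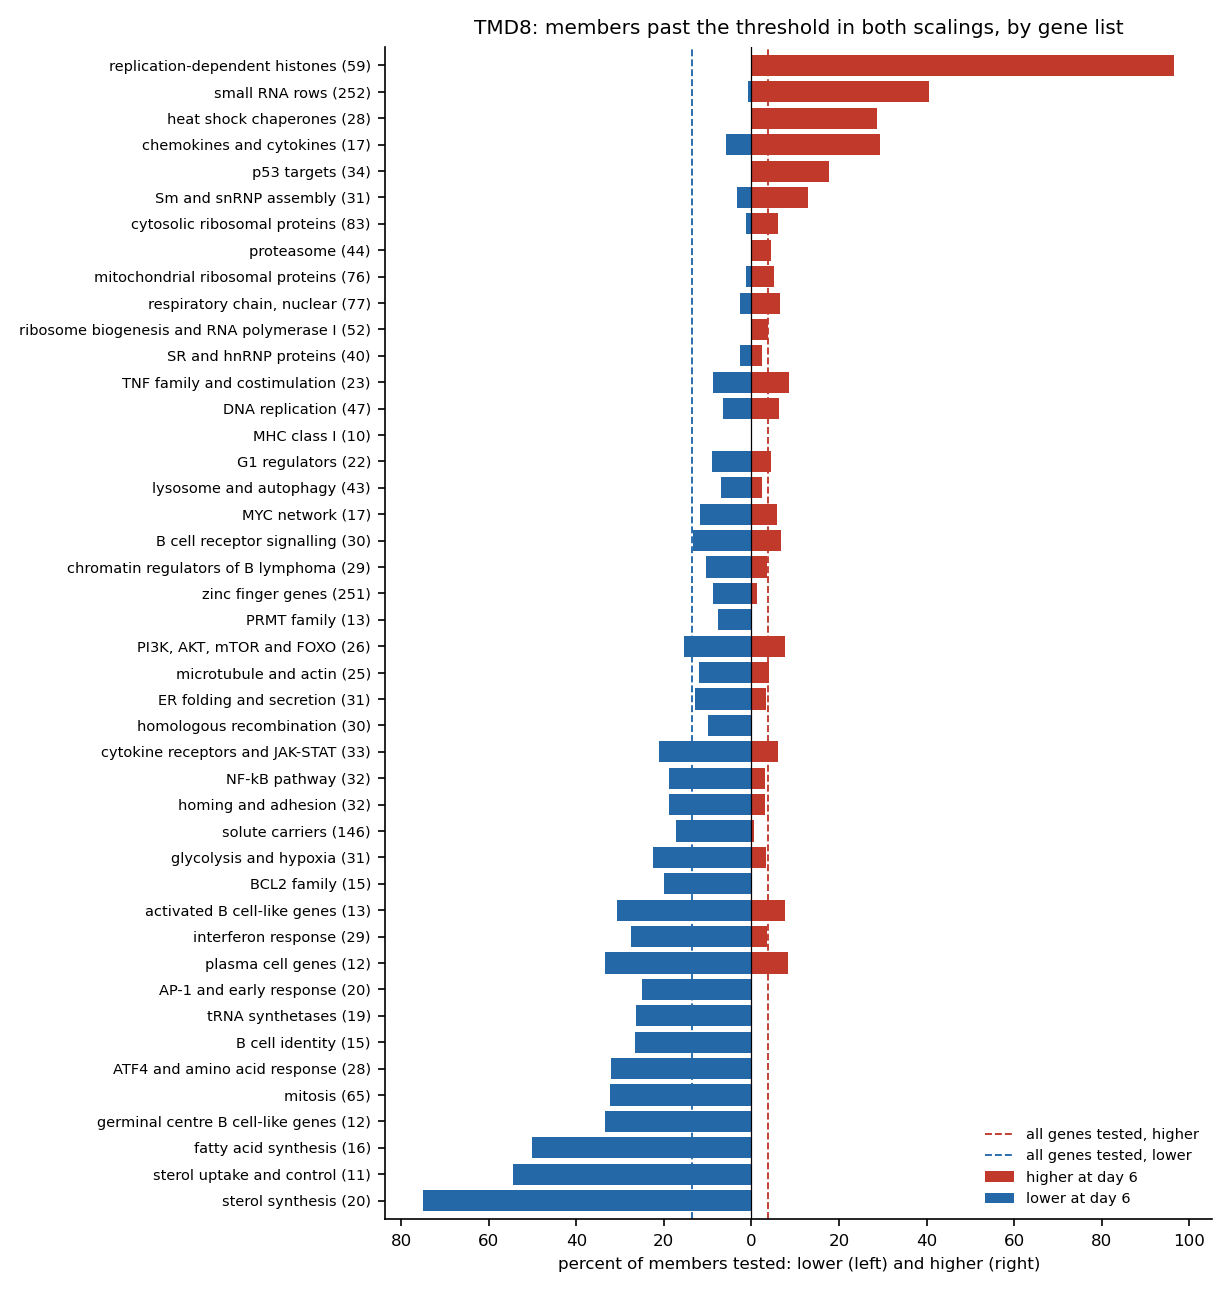
Share of the tested members that rose (red, right) or fell (blue, left) in both scalings in TMD8 at day 6, in percent, for each gene list with at least 10 tested members (number in brackets); dashed lines give the shares over all 10456 tested genes, 3.81% higher and 13.5% lower. Replication-dependent histones (57 of 59 higher) and sterol synthesis (15 of 20 lower) stand at the ends.

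Replication-dependent histones rose almost as a class. These genes, whose messages normally end in a stem-loop in place of a poly(A) tail, had 57 of 59 tested rows higher and 0 lower. Over all tested genes 3.81% rose and 13.5% fell. The summed level of the histone rows was 1263 and 1095 FPKM at day 6, against 428 and 521 FPKM at day 0, with 1219 and 828 FPKM at day 3. HIST1H4D was at 21.8 and 21.6 FPKM at day 6 and at 2.49 and 3.72 FPKM at day 0 (2.78 after scaling, adjusted p = 0.00491). HIST1H1B, a linker histone, was at 37.1 and 36.7 FPKM at day 6 and at 6.40 and 9.53 FPKM at day 0 (2.43, adjusted p = 0.00461). HIST1H4C was at 58.6 and 54.1 FPKM at day 6 and at 10.97 and 15.34 FPKM at day 0, and missed the test without the first day 0 library (as deposited from 1.81 to 2.26). Histone rows are near copies of each other, so the split of reads between them is uncertain. The list's median change was 1.66 after scaling, against 0.41 in OCI-Ly7. After scaling the difference of effects was positive for 24 of 54 rows and negative for 0, against 19.0% and 14.1% of all genes. Without the first day 0 library 18 and without the second 35 of the 59 rows rose, and without the first day 6 library 36.

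Many small RNA rows rose as well. Of 252 tested, of 2098 rows, 102 rose and 2 fell, beside 3.81% and 13.5% of all tested genes. The summed level of the small RNA rows was 16359 and 13921 FPKM at day 6, against 8143 and 8781 FPKM at day 0. RMRP, the RNA of RNase MRP, was at 5785 and 4917 FPKM at day 6 and at 782 and 1098 FPKM at day 0 (2.89 after scaling, adjusted p = 0.00913). RPPH1, the RNA of RNase P, was at 1491 and 1110 FPKM at day 6 and at 189 and 308 FPKM at day 0 (2.78, adjusted p = 0.0132). SCARNA5, a Cajal body RNA, was at 38.9 and 24.3 FPKM at day 6 and at 2.67 and 4.65 FPKM at day 0 (3.11, adjusted p = 0.0179). The first day 0 library, which had the lower 45S share, was also the lower of its day for these 3 RNAs and HIST1H4C. RMRP and RPPH1 missed the test without it (as deposited from 2.28 to 2.77 and from 2.06 to 2.76), and SCARNA5 without it, without the second day 0 library and without the first day 6 library (from 2.47 to 3.13). Without the first and without the second day 0 library 37 and 50 of these rows rose and 0 fell, and without the first day 6 library 67 rose.

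The 45S pre-ribosomal RNA, RNA45S5, was at 20280 and 17581 FPKM at day 6, against 5222 and 7950 FPKM at day 0 (1.92 after scaling, SE 0.253, adjusted p = 0.00915), and passed in each fit without 1 library. Ribosomal RNA, histone messages and these small RNAs normally carry no poly(A) tail, and the summed levels of all 3 classes were higher at day 6. The share of RNA without a tail that each library took in is not given in the sources used here, and its part in the 3 rises was not tested.

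**Figure D5:**
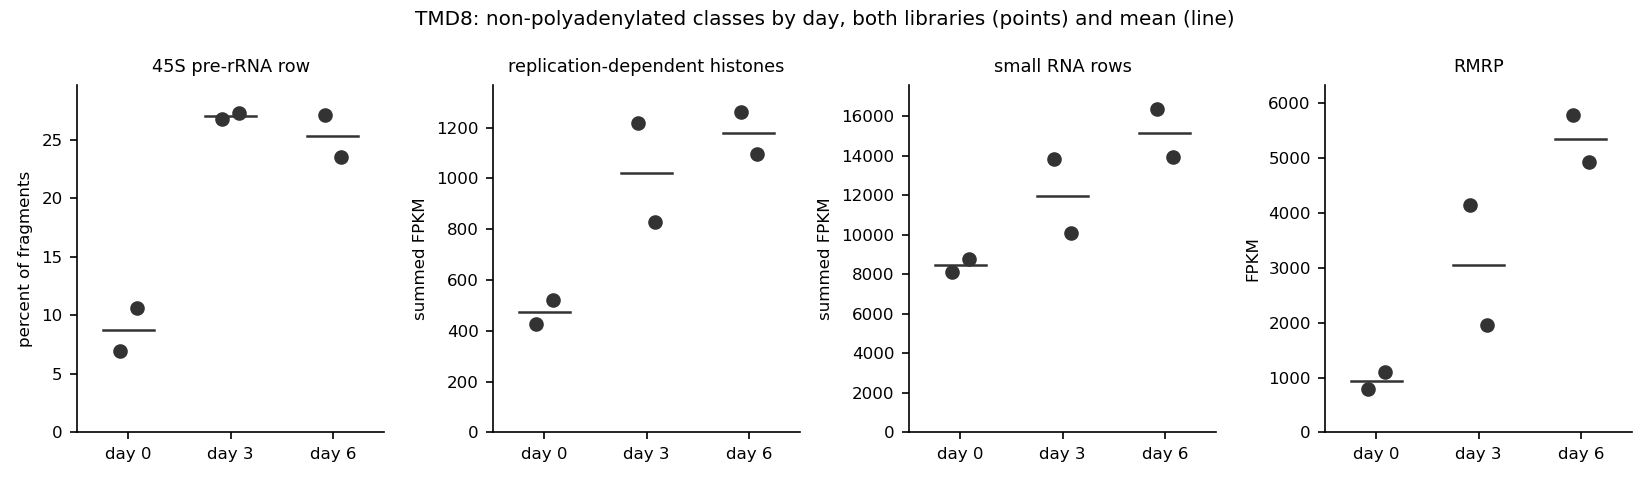
The 45S row as a percent of fragments, summed FPKM of replication-dependent histones and of small RNA rows, and FPKM of RMRP, in TMD8 at days 0, 3 and 6 (horizontal axes), with 2 libraries a day as points and their mean as a line. The percent is estimated from FPKM and an assumed length of the 45S row. Day 6 and day 3 libraries lie above both day 0 libraries in each panel.

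Several large changes fell outside these lists. BTBD16, whose role is little known, was at 1.83 and 2.26 FPKM at day 6, against 10.8 and 11.4 FPKM at day 0 (-1.69 after scaling, SE 0.111, adjusted p = 0.00332). SLIT1, a secreted guidance ligand, was at 6.71 and 7.44 FPKM at day 6 and at 24.3 and 25.1 FPKM at day 0 (-1.33, adjusted p = 0.00239). MBP, the myelin basic protein gene, was at 0.182 and 0.180 FPKM at day 6 and at 3.02 and 3.23 FPKM at day 0 (-1.61, adjusted p = 0.00332). Unlike BTBD16 and SLIT1, which lay between the days at day 3, MBP was already at 0.313 and 0.238 FPKM at day 3. SPP1, which encodes osteopontin, was at 3.78 and 2.82 FPKM at day 6 and at 9.35 and 13.5 FPKM at day 0 (-1.21, adjusted p = 0.0162). LAIR2, a secreted collagen receptor, was listed at 0 and 0.194 FPKM at day 6 and at 2.69 and 1.66 FPKM at day 0 (-1.36, adjusted p = 0.00834). CRYL1, a dehydrogenase of sugar metabolism, was at 1.23 and 0.355 FPKM at day 6 and at 4.85 and 6.13 FPKM at day 0 (-1.64, adjusted p = 0.0149). SPP1 missed the test without the second day 0 library (as deposited from -1.76 to -1.28) and CRYL1 without either (from -2.25 to -1.54).

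A further set was chosen after the values were seen, as genes that passed in each fit without 1 library. GLYATL2, an acyltransferase for glycine, was at 16.5 and 16.0 FPKM at day 6, against 5.33 and 5.33 FPKM at day 0 (1.76 after scaling, adjusted p = 0.00176). CRYM, a thyroid hormone-binding crystallin, was at 23.4 and 21.4 FPKM at day 6 and at 7.48 and 9.48 FPKM at day 0 (1.64, adjusted p = 0.00408). SYT4, a synaptotagmin, was at 8.95 and 9.46 FPKM at day 6 and at 3.44 and 3.22 FPKM at day 0 (1.53, adjusted p = 0.00198). Among surface and adhesion genes of lymphoid cells, LGALS9 (galectin-9) was at 37.4 and 43.5 FPKM at day 6 and at 21.1 and 17.9 FPKM at day 0. CD1C, which presents lipids to T cells, was at 4.10 and 4.12 FPKM at day 6 and at 1.87 and 1.18 FPKM at day 0, and LSP1, an actin-binding protein of leukocytes, changed by 1.24 (adjusted p = 0.00455). COX7A2, a subunit of respiratory complex IV and a member of the respiratory chain list, was at 145 and 141 FPKM at day 6 and at 79.2 and 83.5 FPKM at day 0, and had reached 138 and 134 FPKM at day 3. ACADVL, the first dehydrogenase of very long chain fatty acid oxidation, was at 21.1 and 22.6 FPKM at day 6 and at 57.3 and 53.9 FPKM at day 0 (-0.95, SE 0.0486, adjusted p = 0.00239). VAT1 was at 21.5 and 20.0 FPKM at day 6 and at 51.4 and 51.5 FPKM at day 0 (-0.91, adjusted p = 0.00461).

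Some large changes concerned rows that share reads. SMN1 was at 17.9 and 20.5 FPKM at day 6, against 5.30 and 7.06 FPKM at day 0, and its near-identical copy SMN2 at 9.79 and 7.63 FPKM at day 6 and at 23.7 and 21.3 FPKM at day 0. Their sum was 27.6 and 28.1 FPKM at day 6 and 29.04 and 28.32 FPKM at day 0, so that what moved was the split between the rows; SMN2 also missed the test without either day 0 library (as deposited from -1.44 to -1.12). ROCK1P1, a partial copy of the kinase gene ROCK1, was at 9.19 and 9.49 FPKM at day 6 and was listed at 0 in both day 0 and both day 3 libraries, and the sum of ROCK1 and ROCK1P1 differed by -0.04 on the log2 scale. CD99, a surface glycoprotein, was listed at 0 in both day 6 libraries and stood at 34.0 and 32.8 FPKM at day 0 and at 26.5 and 28.0 FPKM at day 3. FAM203A was likewise listed at 0 in both day 6 libraries, against 4.06 and 3.39 FPKM at day 0. An exact 0 in FPKM can be a failed estimate, and no fold is given for these rows.

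Longer transcripts fell more often. A length in GENCODE v29 was found for 9682 tested genes (92.6%). The 58 replication-dependent histone rows among them, which are short, were left out of the length classes. The median change after scaling was 0.05 in the shortest of 5 classes (177 to 865 nt). It ran over 0.06, 0.03 and -0.03 to -0.12 in the longest (3367 to 27174 nt). The share that fell ran from 11.2% in the shortest class to 21.2% in the longest, and the share that rose from 3.21% to 0.935%. The median length was 1502 nt for the mevalonate genes, 1948 nt from squalene to lanosterol and 1026 nt from lanosterol to cholesterol. For mitotic genes it was 3408 nt for the kinesins, 1570 nt for centromere and checkpoint genes, and 1881 nt for kinases, cyclins and exit genes. The part of length in the changes of single genes was not tested.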

How the data were processed

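RNA was sequenced from TMD8 and OCI-Ly7 cells at days 0, 3 and 6, with 2 libraries per line and day. Per the labels' protocols RNA was extracted with an RNeasy plus kit and libraries were made with a TruSeq RNA kit. The values are FPKM per gene, deposited by the authors; the submitters' processing notes name HISAT, StringTie and hg19, and versions are not given in the sources used here. FPKM are not counts, so precision rests on 2 libraries a day, and relative depth was read from the steps between low values.

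Testing was limited to genes averaging 1 FPKM or more in the 6 TMD8 libraries and run on log2(FPKM + 1) with limma 3.58.1 in R 4.3.3, using a mean-variance trend and Benjamini-Hochberg adjustment over all tested genes. A pooled spread served the 3 TMD8 days (3 residual df). Fold changes on this scale understate those of low genes. The fit was run as deposited and after median-ratio scaling, and the difference between lines on all 12 libraries after median-ratio scaling. Genes were named by size of change in each direction, by list membership and by the given markers, PRMT5, GZMB, CCL4 and MVD, with exceptions stated. The members and lists were chosen with earlier results of these data known. Same-numbered libraries did not deviate together (r of -0.147 for days 6 and 0), so the numbers were not used as pairs. In all, 28 rows bear date names in place of symbols and were not named. Some genes of the lists are counted in them but not reported here by name. Lengths came from GENCODE v29 and promoters from RefSeq, both joined by symbol.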

Additional observations from a re-analysis of the deposited data

Results flagged for a closer look

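The day 6 change of the 55 genes listed here differed between TMD8 and OCI-Ly7 (limma, adjusted p under 0.05 over 9688 genes, in both scalings). Each is given as the day 6 change in TMD8 minus that in OCI-Ly7, on the log2 scale after median-ratio scaling. The difference was positive for 24 of these genes and negative for 31. They were sought only among genes named in this report, many of them named for their TMD8 change. The same TMD8 libraries enter the difference, so these counts are not the outcome of a screen of all genes. After scaling, 19.0% of all 9688 genes were higher in TMD8 and 14.1% lower. Rows listed at 0 in both libraries of day 0 or of day 6 were left out. TM7SF2, named above, also passed in both scalings and is not among the 55.

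Positive differences were 0.98 for PRMT5 and 0.79 for its partner WDR77. The chaperones HSPA8, HSPH1, HSPE1 and DNAJB1 differed by 2.25, 2.37, 1.03 and 1.14. Replication and cell cycle genes PCNA, GMNN and CCNE2 differed by 1.052, 0.73 and 1.24, and the p53 targets SESN1, TRIAP1 and RPS27L by 0.80, 1.42 and 0.69. Immune genes CCL22, FCGR2B, FCRLA and TRIM22 differed by 0.98, 1.45, 1.03 and 0.67, and CRYM and LSP1 by 1.48 and 1.08. The histones HIST1H4D, HIST1H1B and HIST1H4C differed by 2.16, 2.14 and 2.24, and the small RNAs RMRP, RPPH1 and SCARNA5 by 2.34, 2.46 and 3.15.

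Negative differences in lipid metabolism were -1.92 for MVD, -0.77 for SCAP and -1.35 for ACADVL. B cell genes CD22, PAX5, IKZF1, BCL6, MZB1, PLCG2, FCRL3 and TNFRSF13C differed by -0.996, -1.29, -0.36, -0.78, -0.56, -0.87, -0.74 and -1.02. Signalling and interferon genes NFKBIZ, TRAF3, STAT5A, IFITM1 and IRF7 differed by -0.54, -0.56, -0.43, -1.05 and -1.26. Cell division genes TOP2A, KIF14, CENPE, BUB1B, ASPM, CDC25C and POLD1 differed by -0.99, -0.68, -0.66, -0.36, -0.58, -0.55 and -0.99. The mitosis list as a whole did not show this: its median change after scaling was -0.20 in TMD8 and -0.19 in OCI-Ly7. Of its 65 genes the difference was positive for 7 and negative for 9 after scaling, against 19.0% and 14.1% of all genes. As deposited it was positive for 3 and negative for 14. The others were BCL2 at -1.01, SERPINB9 at -0.42, AARS at -0.56, PFKL at -1.21, ACTB at -0.74, BTBD16 at -1.87, CRYL1 at -1.76 and VAT1 at -1.12. Of the 55 differences 43 passed in every fit without 1 of the libraries, and 12 missed the test in at least 1 such fit: SERPINB9, FCRL3, STAT5A, CENPE, POLD1, SESN1, HIST1H4D, HIST1H4C, RMRP, RPPH1, SCARNA5 and CDC25C.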

How the results depend on the processing

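Leaving out 1 TMD8 library gave 221 to 378 higher and 2226 to 5523 lower genes as deposited, 244 to 1396 higher and 142 to 1209 lower after median-ratio scaling, and 167 to 358 that rose and 142 to 1209 that fell in both. Of the 398 rises and 1409 falls, 141 and 132 remained without the first day 0 library and 173 and 156 without the second. For the difference between lines the ranges were 1177 to 1797 higher in TMD8 and 782 to 1267 lower. Set per fragment outside the 45S row 1139 genes were higher and 1903 lower, and with a mean FPKM of at least 5, 916 fell. With the replicate block 344 were higher and 4514 lower as deposited, 1000 and 805 after median-ratio scaling, and 314 and 805 in both. A crossed pairing, chosen after seeing the data, gave 461 and 1429 in both. The difference between lines gave 610 higher as deposited, 709 lower with a mean FPKM of at least 5, and 1602 and 1237 with the block. As deposited, PRMT5 missed the test with equal-sum rescaling (-0.18, adjusted p = 0.137) and the replicate block (adjusted p = 0.0543). The sign reversed for PRMT5 (0.10 after median-ratio scaling, 0.021 outside 45S), WDR77 (0.26, 0.19, and from -0.2446 to 0.06 without 1 library, the highest without the first day 6 library), CDKN1A (0.16, 0.088) and CD79B (0.0688 after median-ratio scaling). The cause was not tested. Relative depth was 0.61 and 0.57 in the day 6 libraries, against 1 and 1.17 at day 0, which limits low genes there.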
